A study of Mus musculus with 25 samples.

Results

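The genes of the respiratory chain that are encoded in the nucleus were followed in 25 single mouse cells. They were taken from the table by their symbols: every gene whose name begins with Nduf and a subunit letter and number, the 4 succinate dehydrogenase genes Sdha to Sdhd, and every gene whose name begins with Uqcr, with Cox and a subunit number, or with Atp5. This gave 84 genes of 30903 in all, of which 37 belong by name to complex I, 4 to complex II, 8 to complex III, 18 to complex IV and 17 to complex V. The rule itself uses names and no measured value.

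The respiratory chain lies in the inner mitochondrial membrane. Complex I (NADH dehydrogenase) and complex II (succinate dehydrogenase, which is also an enzyme of the TCA cycle) pass electrons to ubiquinone, complex III passes them on to cytochrome c, and complex IV (cytochrome c oxidase) hands them to oxygen. Complexes I, III and IV pump protons, and complex V (ATP synthase) uses the proton gradient to make ATP, on which neurons depend for ion pumping and synaptic transmission. A few subunits are encoded by mitochondrial DNA and were not analysed here.

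The cells were picked by hand for green fluorescence from the dissociated arcuate nucleus and median eminence, a region of the ventral hypothalamus, of adult male RIP-Cre mice of the (C57BL/6 x DBA)F2 strain with an average age of 63 days. In these mice a rat insulin promoter drives Cre recombinase, and an AAV with a stop cassette between loxP sites makes GFP only in cells that had Cre. The tissue of 2 mice was pooled and the labels do not tie a cell to a mouse, so all 25 cells form 1 group and 1 sample, no condition can be compared and no p-value is given. Cells carry the numbers of their labels.

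Levels are in RPKM, reads per kilobase of exon relative to all reads of the cell. This sets genes of different length on the same scale only as far as the exon lengths used hold. A gene at 10 RPKM or more in a cell is called at the level there, and "most cells" means at least 13 of 25. The estimated depth ran from 891500 reads in cell 9 over a median of 1794800 to 3005200 in cell 11, and the genes at 10 RPKM or more per cell ran from 3843 in cell 43 over a median of 4896 to 6183 in cell 29. All 10 listed neuron markers were at the level in most cells, with 7 to 10 of them in each cell and a summed level of 983 to 1785 RPKM (median 1374 RPKM). Of 6 listed markers each of astrocytes, oligodendrocytes, microglia and vessel cells and 4 each of tanycytes and pituitary cells, 0 were in most cells. Their summed levels per cell reached at most 39.8 RPKM for astrocytes, 96.4 RPKM for oligodendrocytes, 1.04 RPKM for microglia, 35.6 RPKM for vessel cells, 64.2 RPKM for tanycytes and 15.2 RPKM for pituitary cells. Gfap, Mog, C1qa, Cldn5, Rax and Prl were listed at 0 in every cell. Cells 1, 3, 5, 6, 29 and 31 stood apart by a low level of Malat1, an abundant nuclear RNA, of 0 to 16.6 RPKM, against 45.9 to 196 RPKM in the other 19 cells. Median levels and shares by complex and the main correlations were therefore also computed without these 6.

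Nearly every subunit gene was read in nearly every cell. Of the 84 genes, 76 (90.5%) reached 10 RPKM in most cells, against 13.5% of all 30903 genes. In every cell the level was reached by 67 (79.8%) of the chain genes, against 2.6% of all genes. Only 3 chain genes (3.57%) were listed at 0 in every cell, against 47.1% of all genes. Each cell had between 74 and 77 of the 84 genes at the level (median 75). For a gene seen in all 25 cells the exact Clopper-Pearson 95% interval for the share of cells is 86.3 to 100%. A gene seen in 0 of 25 may still be at the level in up to 12% of such cells (3 counts in 25), or 13.7% by the same exact interval, and these limits cover counting error only.

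The complexes differed in how complete they were. In most cells the level was reached by 36 of 37 genes of complex I, all 4 of complex II, all 8 of complex III, 11 of 18 of complex IV and all 17 of complex V. The 7 genes of complex IV that were missing in most cells are all forms that pair with a second gene for the same subunit, and they are described with that complex. The other gene missing in most cells was Ndufa4l2, a relative of Ndufa4, which was listed at 0 in every cell.

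The level of the 76 genes was high and even. Their median levels over cells had a median of 235 RPKM, against 43.8 RPKM for all 4180 genes at the level in most cells and 241 RPKM for 77 genes of cytosolic ribosomal proteins. Their coefficients of variation over cells had a median of 29.7%, against 75.8% for the 4180 genes and 27.4% for the ribosomal protein genes. Among all genes ranked by median level, the first 100 held 13 chain genes and the first 500 held 59. A higher level went with a lower coefficient of variation across the 76 genes (Pearson r -0.66, Spearman rho -0.54, a description over genes of the same cells).

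**Figure D1:**
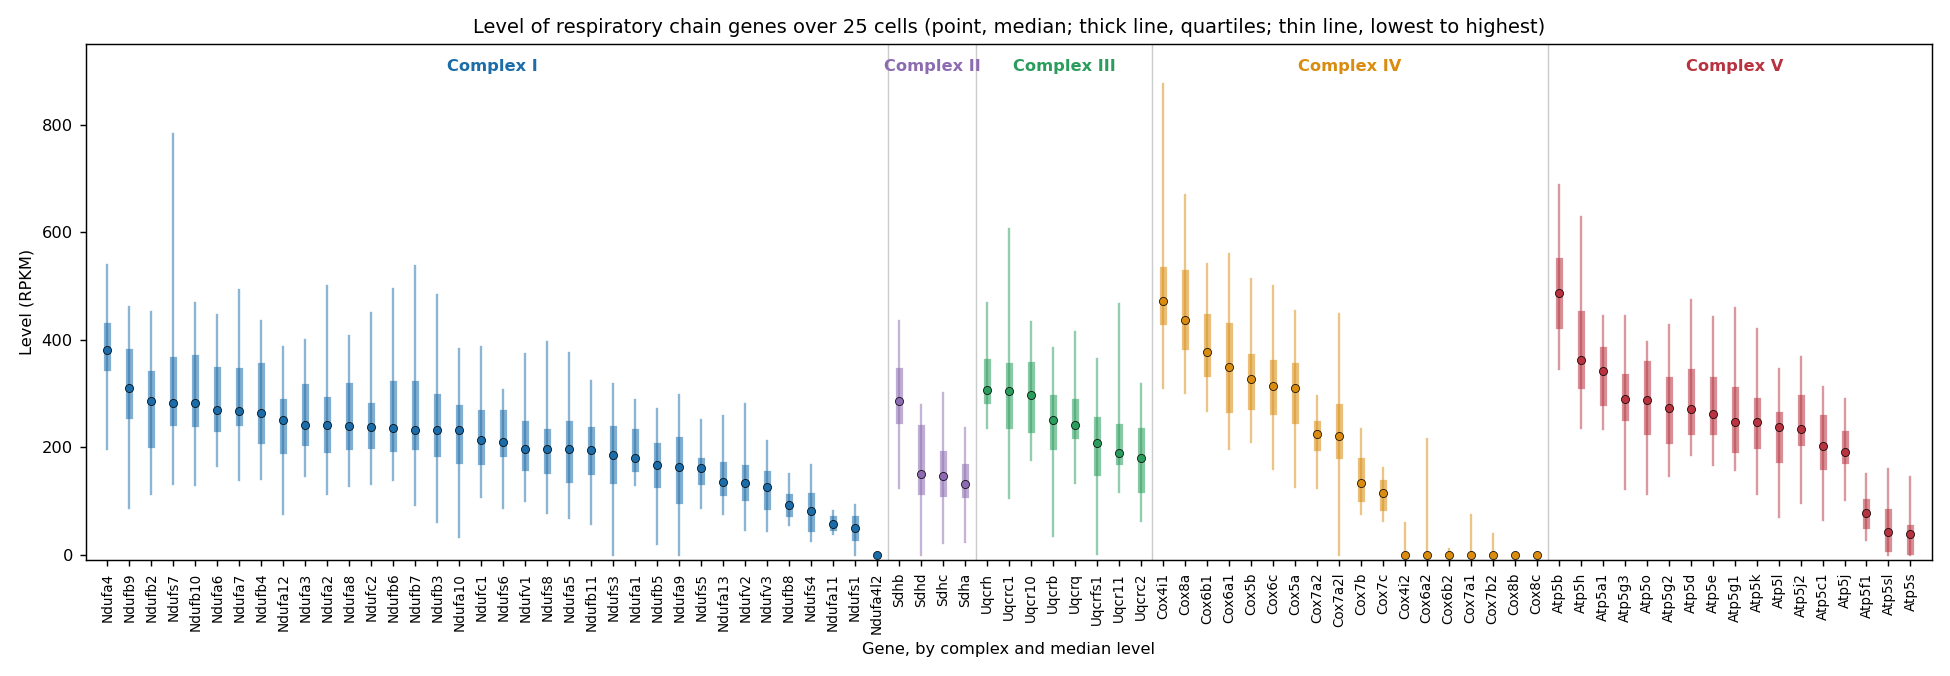
The level of 83 of the 84 genes in RPKM (vertical axis, linear) over 25 cells, grouped by complex and ordered by median; points are medians, thick lines quartiles and thin lines the lowest to the highest cell. Most medians lie between 100 and 400 RPKM, those of Atp5b, Cox4i1 and Cox8a lie above that, and those of 7 genes of complex IV and Ndufa4l2 are 0.

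Complex I takes electrons from NADH through a peripheral arm of catalytic subunits, around which many accessory subunits are packed. The 7 catalytic genes, among them Ndufs1, Ndufs7 and Ndufv1, had median levels from 49.6 to 283 RPKM, with a median of 197 RPKM. The other 29 genes of complex I by name that were seen in most cells are called accessory here, Ndufa4 included. Their medians ran from 57.0 to 381 RPKM, the highest being that of Ndufa4, with a median of 232 RPKM. In every cell the level was reached by 4 of the 7 catalytic and 28 of the 29 accessory genes. The median coefficient of variation over cells was 39.2% for the catalytic genes and 29.8% for the accessory genes, with no test of the difference.

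Ndufa4, which bears a complex I name but is now placed with cytochrome c oxidase, led complex I with 198 RPKM in the lowest cell, a median of 381 RPKM and 538 RPKM in the highest. Ndufb9, an accessory subunit of the membrane arm, followed with 86.2, 309 and 461 RPKM (lowest, median and highest cell). Ndufs7, which holds an iron-sulphur cluster near the site of ubiquinone reduction, had 132, 283 and 783 RPKM, the highest value being that of cell 9, with 436 RPKM in the next highest cell. These 3 genes were thus well above the level in all 25 cells, and their ranges overlapped.

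Ndufb2, Ndufb10, Ndufa6, Ndufa7 and Ndufb4, all accessory subunits, completed the 8 highest of complex I with medians of 286, 283, 269, 268 and 263 RPKM. The lowest of the complex were Ndufs1, Ndufa11 and Ndufs4. Ndufs1 encodes the largest subunit of the peripheral arm, with iron-sulphur clusters, and had 49.6 RPKM in the median cell and 91.8 RPKM in the highest. It was listed at 0 in cells 8 and 43 and at 0.26 RPKM in cell 9. Ndufs7 was above Ndufs1 in 25 of 25 cells, with a median ratio of 4.94 on the RPKM scale. That ratio depends on the exon lengths used, which are 8086 bases for Ndufs1 and 1718 for Ndufs7 in GENCODE M21. The lengths the authors used are not known, and the part of length was not tested. Ndufa11, an accessory subunit of the membrane arm, was low but even, with 38.2, 57.0 and 80.9 RPKM and a coefficient of variation of 20.3%. Ndufs4, an accessory subunit needed for a stable complex, had 25.4, 80.8 and 167 RPKM.

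Values below the level were few among these genes and touched 1 to 3 cells each. Ndufa9, an accessory subunit of the peripheral arm, was listed at 0 in cells 5 and 14 and had 163 RPKM in the median cell and 297 RPKM in the highest. With a coefficient of variation of 59.3% it varied most of the 74 genes that encode subunits and were seen in most cells. Ndufs3, a catalytic subunit of the peripheral arm, was listed at 0 in cell 6. Smart-Seq2 libraries carry no molecular identifiers, so a 0 in a single cell cannot be told apart from a transcript lost before amplification.

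Complex II has 4 subunits, all encoded in the nucleus, and was the lowest complex. Its 4 median levels had a median of 148.3 RPKM. The same measure was 177 RPKM for complex IV over all 18 genes and 209 RPKM for complex I. It was 245.6 RPKM for complex III and 247.8 RPKM for complex V. Sdhb, the iron-sulphur subunit, had 125 RPKM in the lowest cell, a median of 287 RPKM and 435 RPKM in the highest. Sdha, the flavoprotein that oxidises succinate, had 23.6, 131 and 235 RPKM. Sdhb was above Sdha in all 25 cells, with a median ratio of 1.83.

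The membrane anchors of complex II were close to Sdha. Sdhc had 21.8, 146 and 300.4 RPKM, and Sdhd had 0, 151 and 279 RPKM, with the 0 in cell 24. Cell 24 was also the lowest for Sdhc, and it had the lowest complex II sum, 433 RPKM, against a median of 764 RPKM. Sdhb exceeded Sdhc in 24 cells and Sdhd in 21.

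Complex III, the cytochrome bc1 complex, had all of its 8 genes in most cells and 7 in every cell. Uqcrh, the hinge subunit next to cytochrome c1, led with 235, 307 and 468 RPKM and was the most even gene of the complex, with a coefficient of variation of 20.5%. Uqcrc1, a core subunit on the matrix side, had 106, 304 and 607 RPKM, and Uqcrc2, the other core subunit, 61.9, 179 and 317 RPKM. Uqcrc1 was the higher of the core pair in 24 of 25 cells, with a median ratio of 1.52.

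The small subunits of complex III lay in between. Uqcr10, Uqcrb, Uqcrq and Uqcr11 had medians of 297, 249.8, 241 and 189 RPKM. Uqcrfs1, the Rieske iron-sulphur protein, had a median of 208 RPKM and 0.83 RPKM in cell 27, the only cell in which it was below the level. The 5 genes with medians from 241 to 307 RPKM had ranges over cells that overlapped throughout.

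Complex IV held some of the highest chain genes and all but 1 of those missing in most cells. Over all 18 genes the median of the median levels was 177 RPKM, and over the 11 genes seen in most cells it was 315 RPKM. The place of complex IV among the complexes thus depends on whether the forms missing in most cells are counted. Cox4i1, the ubiquitous form of subunit 4, which is needed for assembly, had 310 RPKM in its lowest cell (cell 29), a median of 473 RPKM and 876 RPKM in its highest (cell 9), and ranked 11 of all genes by median level. Cox8a, the ubiquitous form of subunit 8, had 300.3, 437 and 668 RPKM and ranked 19. Cox6b1, which faces the intermembrane space, had 267, 376 and 540 RPKM, and its coefficient of variation of 19.2% was the third lowest of the 76 genes.

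The other subunits of complex IV were read in all 25 cells, at lower levels. Cox6a1, Cox5b, Cox6c and Cox5a had medians of 349, 328, 315 and 310 RPKM. Cox7a2 had 225 RPKM, Cox7b 133 RPKM and Cox7c 115 RPKM, and Cox8a was above Cox7c in 25 of 25 cells with a median ratio of 3.91. Cox7c lay within 61.9 to 162 RPKM, below every cell's value of Cox8a.

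Mammals encode 6 subunits of complex IV in a ubiquitous and at least 1 tissue-restricted form, and in each of the 6 the ubiquitous gene was above the restricted ones in all 25 cells. Cox4i2, the form known from lung and oxygen-sensing cells, was read in cell 15 alone, with 59.4 RPKM, where it made 10.5% of the RPKM of Cox4i1 and Cox4i2. Cox6a2, the form known from heart and skeletal muscle, had its highest value in cell 25, with 216 RPKM. Cells 6 and 24 held 58.1 and 52.9 RPKM of it, cells 31 and 29 held 6.37 and 1.13 RPKM, and its value was 0 in the other 20 cells. In cell 25 it made 39.0% of the RPKM of Cox6a1 and Cox6a2. Cox6a2 overlaps exons of Itgad on the opposite strand, and the libraries do not mark strand.

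The forms known from testis were as rare. Cox6b2 was read in cells 32 and 11, at 10.3 and 3.84 RPKM, and Cox7b2 only in cell 17, at 37.8 RPKM, where it made 27.9% of the RPKM of Cox7b and Cox7b2. Cox8c, likewise known from testis, and Cox8b, known from heart and muscle, were listed at 0 in every cell. Each restricted form that was read at all was therefore read in 1 to 5 cells.

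Cox7a differed in having a relative of the ubiquitous gene at a like level. Cox7a1, the heart and muscle form, was read in cell 31 alone, with 73.4 RPKM. Cox7a2, the widespread form, and Cox7a2l, a related protein that joins complexes III and IV into supercomplexes, were both high, with medians of 225 and 221 RPKM. Cox7a2l was above Cox7a2 in 14 cells and below it in 11, and it was listed at 0 in cell 43. Of the coding sequence of Cox7a2l, 70.7% of the 50-base runs also occur in another annotated gene, so its reads may have been split by the authors' counting.

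**Figure D2:**
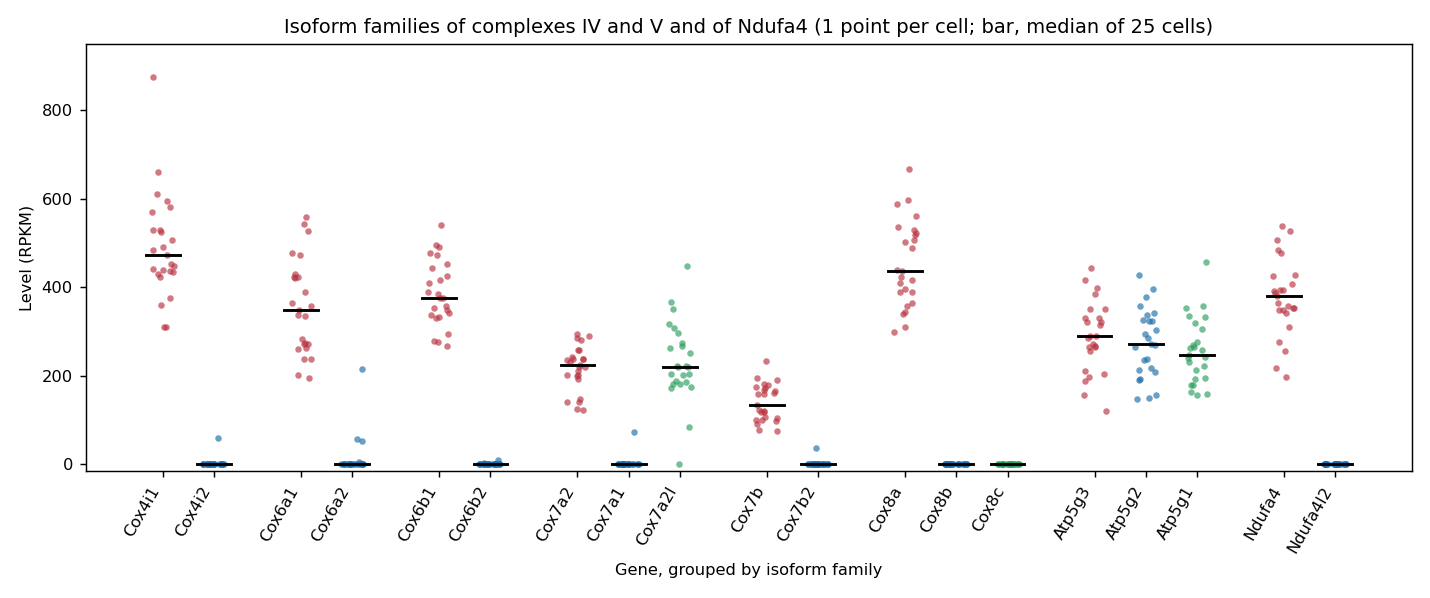
The level in RPKM (vertical axis, linear) of each gene of 8 isoform families, with 1 point per cell and a bar at the median of 25 cells; colours only set the members of a family apart. One gene of a family holds nearly all of the level except in Cox7a, where Cox7a2 and Cox7a2l lie at 225 and 221 RPKM, and in Atp5g, where 3 genes lie at 289, 273 and 248 RPKM.

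Complex V is a rotary enzyme, with a catalytic F1 head, a rotating ring of c subunits in the membrane and a peripheral stalk that holds the head still. Atp5b, the catalytic beta subunit, was the highest chain gene, with 345 RPKM in its lowest cell, a median of 487 RPKM and 688 RPKM in its highest, and it ranked 7 of all genes by median level. It was also the most even chain gene, with a coefficient of variation of 17.6%. The gene lies at chr10:128083273-128090391 on the plus strand of GRCm38. Atp5a1, the alpha subunit, had 233, 341 and 444 RPKM and the second lowest coefficient of variation, 18%.

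Within the head the levels kept 1 order in every cell as far as Atp5b is concerned. Atp5b was above Atp5a1, Atp5c1 (gamma), Atp5d (delta) and Atp5e (epsilon) in 25 of 25 cells each, with median ratios of 1.42, 2.17, 1.72 and 1.79. Atp5a1 was above Atp5c1 in 25 cells, with a median ratio of 1.53. Atp5d, Atp5e and Atp5c1 had medians of 272, 261 and 202 RPKM, and their ranges overlapped. The assembled head holds alpha and beta in equal number, which is a fact of the protein and was not measured here.

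Levels within the peripheral stalk were far apart. Atp5h (subunit d) had 236, 363 and 629 RPKM, while Atp5f1 (subunit b) had 27.7, 77.0 and 151 RPKM. Atp5f1 was below Atp5h in all 25 cells, with a median ratio of 0.221. Of the 50-base runs of their coding sequences, 49.9% in Atp5f1 and 66.6% in Atp5h also occur in other annotated genes. Exons of Atp5f1 also overlap Wdr77 on the opposite strand, so the ratio may be affected by how reads were counted. It also depends on the exon lengths used, which are 4105 bases for Atp5f1 and 1465 for Atp5h in GENCODE M21. Atp5o, the stalk subunit that confers oligomycin sensitivity, had a median of 288 RPKM, and Atp5j (subunit F6) 191 RPKM. The membrane subunits Atp5k (e), Atp5j2 (f) and Atp5l (g) lay close together, at 246.7, 234 and 238 RPKM.

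Atp5s and Atp5sl match the name rule but are not subunits of the synthase. They were the lowest and most variable of the 76 genes, with medians of 38.8 and 42.8 RPKM and coefficients of variation of 95.9% and 87.4%. Atp5s was below the level in 7 cells and Atp5sl in 6. Atp5sl, now called Dmac2, is known as an assembly factor of complex I. Without this pair, 74 genes were in most cells and 67 in every cell.

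The c ring is made of copies of 1 small protein that mammals encode in 3 genes, Atp5g1, Atp5g2 and Atp5g3. Their products differ in the import sequence that is removed in the mitochondrion, and the last 78 residues of their coding sequences in GENCODE M21 translate to the same protein. Over the 237 bases that encode this end, the genes are 77.2 to 84.8% identical at the DNA level, against 28.7 to 39.2% over the bases before it. The stretches before it differ in length and were compared without gaps over their last 174 or 189 bases, so their identity may be understated. The 90 bases below begin this shared end, over which the protein is the same. Capitals mark the 26 positions at which the genes differ, 23 of them at the third position of a codon. The sequences run in the direction of the coding strand, from genes on the minus strand of GRCm38 at chr2:73908447-73911326 (Atp5g3), chr15:102662864-102672352 (Atp5g2) and chr11:96068852-96075670 (Atp5g1).
Atp5g3: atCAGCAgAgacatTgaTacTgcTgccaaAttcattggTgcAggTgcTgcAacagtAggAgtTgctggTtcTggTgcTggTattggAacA
Atp5g2: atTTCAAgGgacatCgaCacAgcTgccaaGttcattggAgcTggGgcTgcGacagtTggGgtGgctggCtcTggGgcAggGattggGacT
Atp5g1: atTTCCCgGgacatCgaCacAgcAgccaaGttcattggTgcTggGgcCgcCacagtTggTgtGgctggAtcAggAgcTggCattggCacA

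All 3 genes were read in every cell and at close levels. Atp5g3 had 122 RPKM in its lowest cell, a median of 289 RPKM and 444 RPKM in its highest, Atp5g2 had 147, 273 and 427 RPKM, and Atp5g1 had 158, 248 and 458 RPKM. The 3 ranges overlapped nearly throughout. Atp5g3 was the highest of the family in 13 cells, Atp5g2 in 7 and Atp5g1 in 5, and their median shares of the summed family level were 36.1, 34.7 and 31.0%. In cell 9 Atp5g1 made 63.1% of the family, the highest share of any of the 3 in any cell. Together the c ring genes summed to 528 RPKM in the lowest cell, 794 RPKM in the median cell and 1171 RPKM in the highest. The longest run of bases shared by any 2 of the 3 over the coding sequence, aligned without gaps, was 21. However, all 50-base runs of Atp5g2 and 99.7% of those of Atp5g1 also occur in other annotated genes. Their counts may therefore share reads with those copies.

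The same limit touches other genes named above. Of 83 genes with an annotated coding sequence, 47 share no 50-base run with another gene, and 12 share at least 50% of their runs, among them Atp5l, Cox7c and Ndufb4 with 100%, Atp5h with 66.6% and Cox5b with 61.9%. Across 75 genes seen in most cells the share of such runs and the level were nearly unrelated (Pearson r 0.06, Spearman rho 0.06). In 26 genes the exons overlap a gene on the opposite strand, Atp5a1, Cox4i1, Atp5f1 and Ndufs1 among them, and reads from the opposite strand cannot be told apart. Exon length and level were weakly related (Pearson r -0.21, Spearman rho -0.13 over 75 genes).

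Of the summed RPKM of all 30903 genes in a cell, the 84 genes held between 3.42 and 5.58%. The median was 4.45% and the SD over cells 0.526 percentage points. No gene named as mitochondrially encoded was part of this sum. Cell 29 had the lowest share and cell 43 the highest. The median shares were 1.94% for complex I, 0.189% for complex II, 0.506% for complex III, 0.861% for complex IV and 1.04% for complex V. The order of these shares follows the number of genes in part, since complex I has 37 and complex II has 4. Without the 6 cells low in Malat1 the median share of all 84 genes was 4.39%, and without the 3 shallowest cells it was also 4.39%.

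The spread between cells was of similar size in the complexes and widest in complex II, whose sum holds only 4 genes. The summed level of all 84 genes ran from 12197 RPKM in cell 29 over a median of 17274 RPKM to 23894 RPKM in cell 1. The highest cell exceeded the lowest by a factor of 2.10 for complex I, 2.53 for complex II, 1.92 for complex III, 1.94 for complex IV and 2.00 for complex V. The balance between complexes moved less. Within a cell, the sum of complex V was 0.451 to 0.647 of that of complex I (median 0.539), that of complex IV 0.365 to 0.547 (median 0.436), that of complex III 0.205 to 0.315 (median 0.261) and that of complex II 0.0661 to 0.122 (median 0.0964). Complex V exceeded complex IV in most cells, with a ratio of 0.927 in cell 9, 1.24 in the median cell and 1.48 in cell 14.

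**Figure D3:**
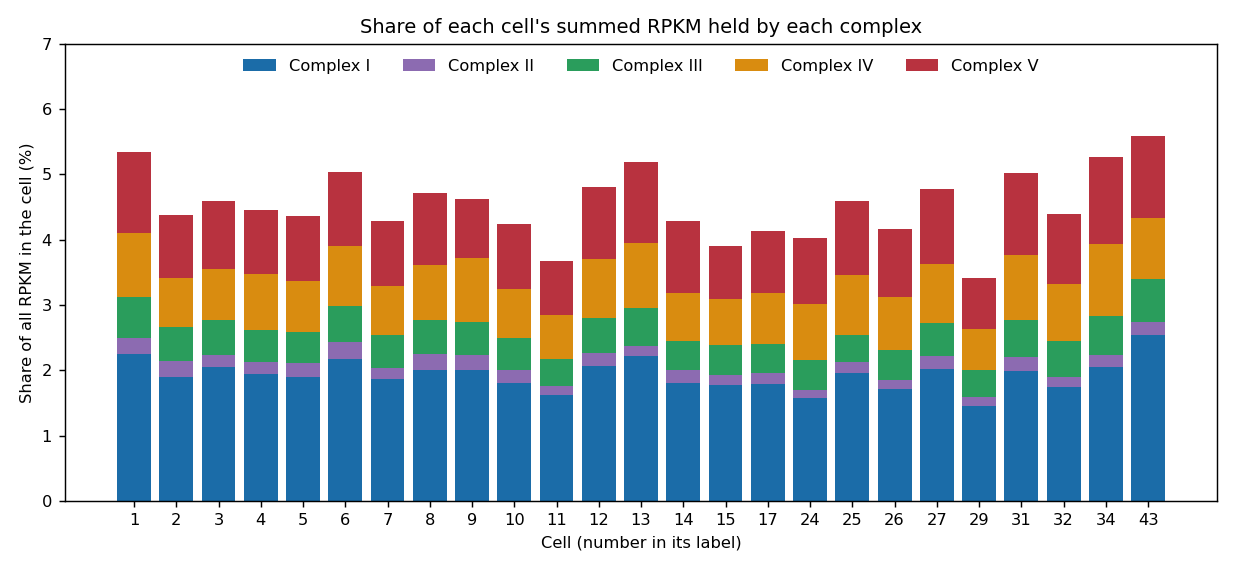
The share of each cell's summed RPKM held by complexes I to V (vertical axis, percent, from 0), stacked, for 25 cells named by the numbers in their labels. The total runs from 3.42% in cell 29 to 5.58% in cell 43, and complex I makes the largest band in every cell.

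A few cells supplied most of the extremes. Cell 43 had the highest value of 24 of the 76 genes, and cell 9 that of 17, while cell 9 also had the lowest value of 10 genes. Cell 15 was lowest for 11 genes, and cells 24 and 29 for 9 each. Cell 43 had the fewest genes at the level, 3843, and cell 9 was the shallowest, at an estimated 891500 reads. In cell 9 Ndufs7, Cox4i1, Uqcrc1 and Uqcr11 had their highest values while Ndufa4, Atp5g3, Atp5h and Atp5f1 had their lowest, so this cell was uneven and not high or low throughout.

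The genes varied together to a modest degree. Over 25 cells the mean Pearson r of log2(RPKM + 1) between 2 of the 76 genes was 0.237 over 2850 pairs, of which 77.1% were above 0. It was 0.0103 between 2 of the 4180 genes at the level in most cells. Those genes were not matched to the chain genes by level, with a median of 43.8 RPKM against 235 RPKM. The part of level in this difference was not tested. Between 2 ribosomal protein genes the mean r was 0.345. Between a chain gene and a ribosomal protein gene it was 0.227, close to that among the chain genes themselves. All points come from 1 pool and 1 table, and the values of a cell share its library and depth, so these values are given as a description without a test. With all cells brought to an equal total, the mean r of the chain genes was 0.139, and that of the 4180 genes was not computed on this scale. Without the 6 cells low in Malat1 the mean r of the chain genes was 0.173.

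Genes of complexes IV and V were the most alike. The mean r was 0.33 within complex IV, 0.287 within complex V and 0.316 between them. It was 0.223 within complex I, 0.218 within complex II and 0.159 within complex III, and 0.139 between complexes II and IV. Genes of complexes I and III were on average at least as alike to those of complex IV, with a mean r of 0.254 and 0.255, as to those of their own complex.

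Summed by complex, the relations were closer. The sums of complexes I and III had a Pearson r of 0.892 and a Spearman rho of 0.872, those of IV and V 0.891 and 0.848, and those of I and V 0.853 and 0.826. Complex II followed the others least, with r 0.559 and rho 0.508 for complex IV and r 0.577 and rho 0.522 for complex V. For complex II with III r was 0.652 and rho 0.634, and with I they were 0.765 and 0.754. The sum of complex II holds 4 genes, fewer than any other, and the part of gene number was not tested. The mean r over the 10 pairs of complexes was 0.767, and it was 0.674 without the 6 cells low in Malat1.

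**Figure D4:**
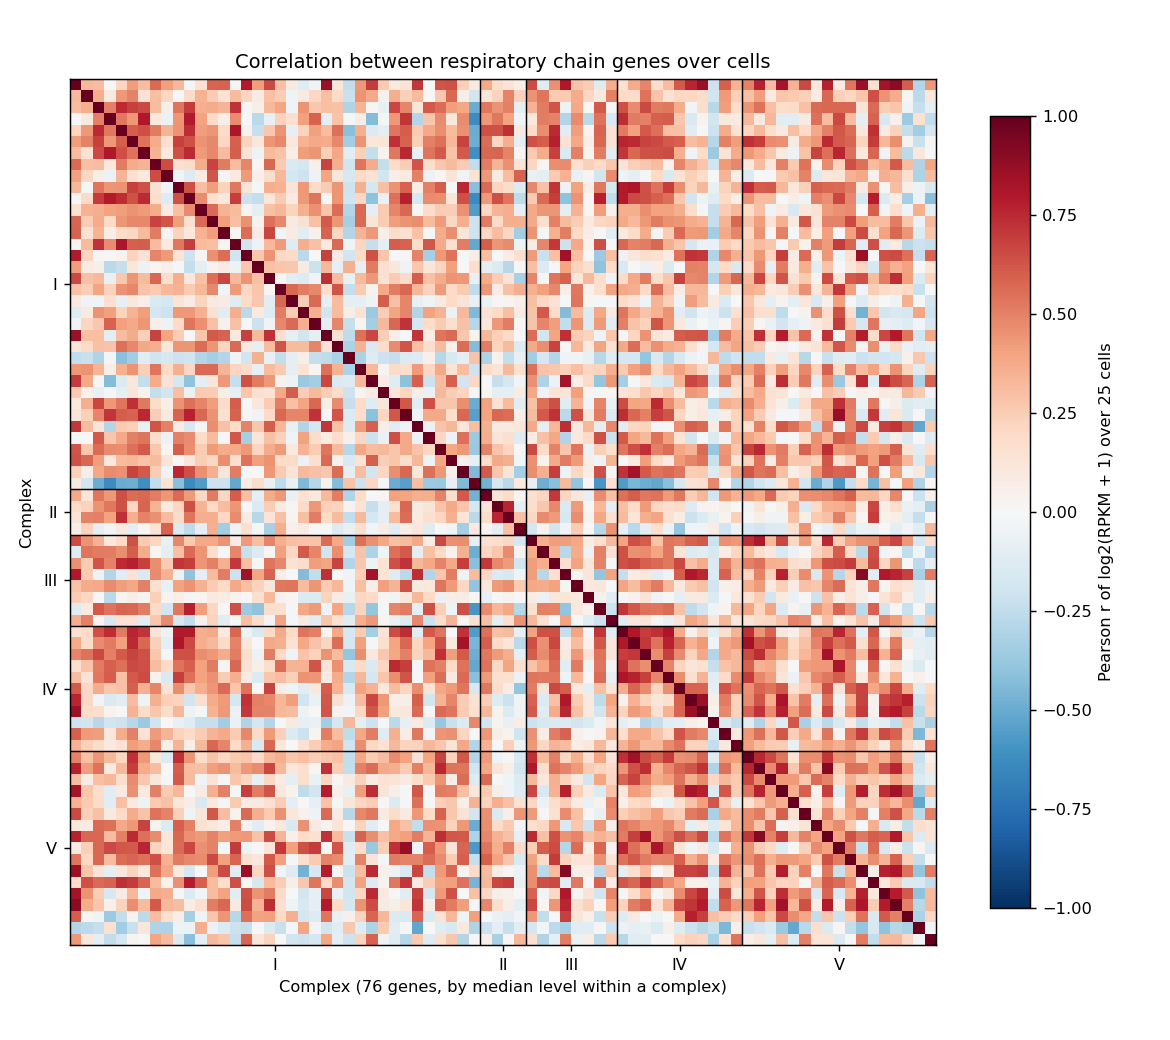
Pearson r over 25 cells of log2(RPKM + 1) between the 76 genes at the level in most cells (colour, from -1 to 1), ordered by complex and by median level within a complex. Most pairs are above 0, the blocks of complexes IV and V are the reddest with mean r of 0.33 and 0.287, and a few single genes, Ndufs1 among them, run against the rest.

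Single genes differed widely in how they followed the rest. Against the mean log2 level of the other 75 genes, Atp5e had r 0.866, Ndufa4 0.802, Atp5h 0.771, Atp5j 0.731 and Cox7a2 0.718, and the median of the 76 genes was 0.501. In 4 genes r was below 0, namely Ndufs1 at -0.309 (rho -0.315), Atp5sl at -0.293 (rho -0.263), Ndufs3 at -0.237 (rho 0.00692) and Cox7a2l at -0.218 (rho 0.387). For Ndufs3 and Cox7a2l, each with a 0 in 1 cell, the direction thus did not hold by rank. Each of these 4 was listed at 0 in at least 1 cell. Ndufs1 and Cox7a2l were both listed at 0 in cell 43, the cell with the highest share of chain genes.

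Outside the chain, the genes whose levels most resembled the mean log2 level of the 76 genes were drawn from 4104 others. Atpif1, which inhibits ATP synthase when the proton gradient fails, came first with r 0.815, followed by Sod1 (0.783), Tmsb4x (0.72), Selk (0.713), Fth1 (0.708), Snrpd3 (0.707), Dynlrb1 (0.705), Slc25a4 (0.699) and Calm2 (0.696). All of these were at the level in all 25 cells, and none was a ribosomal protein gene.

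The summed level of the chain genes moved with measures of the whole cell. It was lower in cells with more genes at the level (Pearson r -0.755, Spearman rho -0.662) and in deeper cells (r -0.582, rho -0.517), and higher in cells with a higher sum of ribosomal protein genes (r 0.797, rho 0.815). Without the 2 cells farthest from the median of each measure, r was -0.596, -0.534 and 0.713. For complex IV, r with depth was -0.785 and rho -0.759, and for complex II r was -0.217 and rho -0.125. Depth and the ribosomal sum were themselves related (r -0.792, rho -0.805). With Malat1 r was -0.118 and rho -0.0231, and without the 6 cells low in Malat1 r was 0.21. The part of depth or gene number in these relations was not tested.

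**Figure D5:**
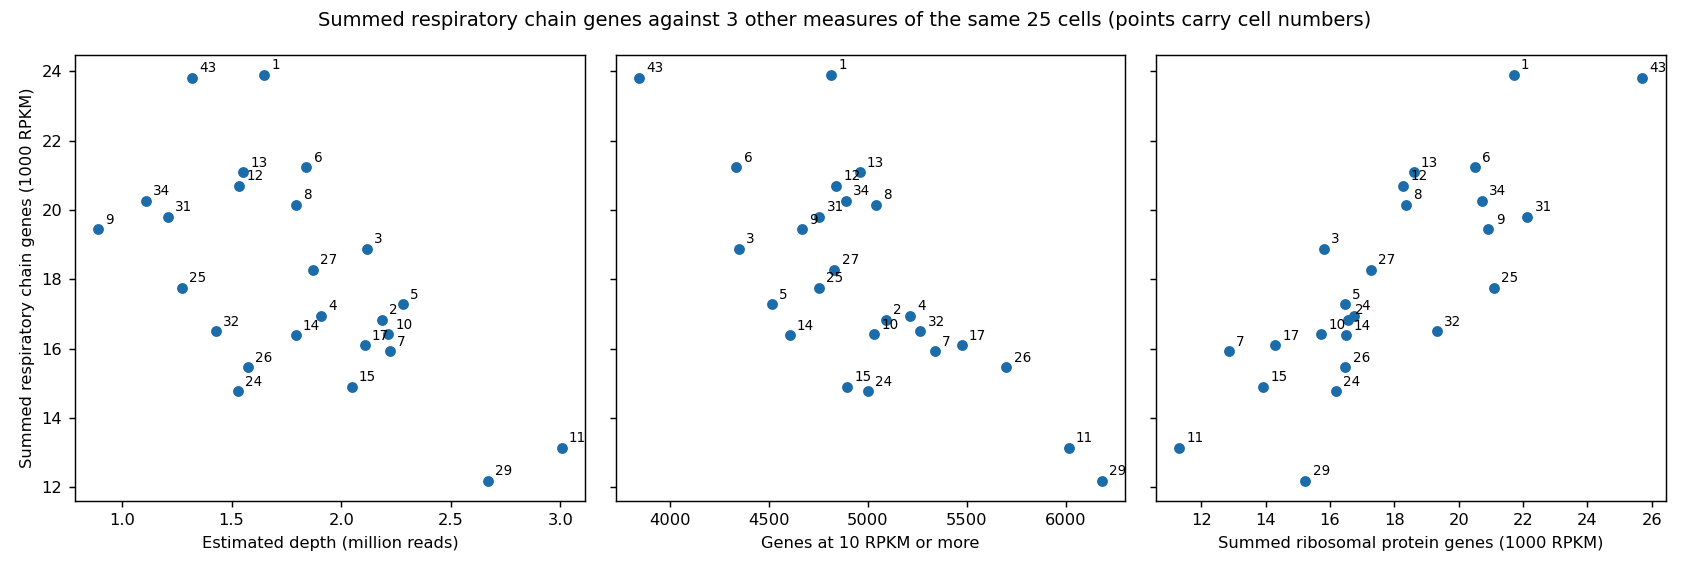
The summed level of the 84 genes (vertical axis, kilo-RPKM) against estimated depth (reads, in units of 10 to the power 6), the number of genes at 10 RPKM or more, and the summed level of ribosomal protein genes (kilo-RPKM), with 1 point per cell and the cell numbers beside the points. Cells 11 and 29 lie lowest and cells 1 and 43 highest, and Pearson r is -0.582, -0.755 and 0.797.

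Other genes of the same pathway were read with the chain. Ndufab1, the acyl carrier protein that is also a complex I subunit, Cyc1, the cytochrome c1 of complex III, and Cycs, cytochrome c, are outside the name rule and were at the level in all 25 cells, with medians of 175, 141 and 57.6 RPKM. Of 16 genes of the TCA cycle and pyruvate dehydrogenase, 15 were in most cells and 6 in every cell, against 13.5% and 2.6% of all genes. Mdh2, the malate dehydrogenase of mitochondria, had 248, 369 and 550.1 RPKM, and Idh3b, Idh3g and Pdhb had medians of 239, 216 and 181 RPKM. Suclg2, the GTP-forming subunit of succinyl-CoA ligase, was at the level in 2 cells, while Sucla2, the ATP-forming one, had a median of 114 RPKM.

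All 12 listed carriers, pores and uncoupling genes were in most cells and 6 in every cell, against 13.5% and 2.6% of all genes. Slc25a4, which exchanges ADP for ATP, had a median of 329 RPKM, and the outer membrane pores Vdac3, Vdac2 and Vdac1 had 223, 173 and 152 RPKM. Ckmt1, the creatine kinase of mitochondria, had 162 RPKM. Immt, a protein that shapes the inner membrane, had 42.3 RPKM, and Ucp2 and Slc25a27, both of the uncoupling family, had 55.6 and 14.7 RPKM, the last below the lowest median of the 76 chain genes, 38.8 RPKM.

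Of 40 measured assembly factors of the complexes, 25 were in most cells and 4 in every cell, against 13.5% and 2.6% of all genes. The median of their median levels was 24.3 RPKM, against 235 RPKM for the 76 chain genes. The highest were Coa3, which joins early in complex IV assembly, with a median of 241 RPKM, Cox17, a copper carrier, with 214 RPKM, Uqcc2, which serves complex III, with 192 RPKM, Cox14 with 147 RPKM and Sdhaf4, which serves Sdha, with 146 RPKM. Ndufaf1 was at the level in 7 cells.

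Of 14 transcription factors and coactivators that are known to drive mitochondrial genes, 0 were in most cells, against 13.5% of all genes, and nothing is read from this count in so short a list. Tfb2m, a mitochondrial transcription factor, was at the level in 8 cells, Tfam and the coactivator Pprc1 in 6 each, Yy1 in 5, Nrf1 in 4, and Gabpa and the coactivator Ppargc1a in 1 each. Ppargc1a reached 13.2 RPKM in its highest cell. Esrra, Esrrg and Ppard stayed below 10 RPKM in every cell, and Esrrb and Ppara were listed at 0 throughout. The median summed level of the 14 genes was 42.9 RPKM per cell, and at such levels r with the chain genes is no measure of a relation.

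The promoters of the chain genes were searched for the elements of 3 factors known to act on this pathway. RefSeq promoters (GRCm38.p6, from 250 bases before to 50 after the start, the first listed per gene) were at hand for 66 of the 84 genes and for 3217 genes at the level in most cells. Both strands were searched. The NRF1 core GCGCATGC, whose reverse complement overlaps it so that a single site can be counted on both strands, stood in 10 chain promoters (15.2%), against 6.78% of the 3217 and 2.8% of all 27025 promoters. The YY1 element AAGATGGC stood in 8 (12.1%), against 6.37% and 2.88%. The ETS element CCGGAAG, which Gabpa binds, stood in 15 (22.7%), against 21.5% and 9.12%. A match is a stretch of letters and not a site shown to be bound, and chain genes differ from all genes in being expressed, so the 3217 genes are the nearer background.

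Complex I supplied 32 of the 66 promoters, complex II 3, complex III 5, and complexes IV and V 13 each. Of the 8 YY1 matches 7 were in complex I (Ndufa3, Ndufa9, Ndufb8, Ndufc1, Ndufs4, Ndufs6 and Ndufs7) and 1 in complex V (Atp5j2), and all lay 23 to 39 bases after the start. The NRF1 core stood in 3 genes of complex I, 1 of complex II, 2 of complex III, 1 of complex IV and 3 of complex V, and the ETS element in 4, 2, 2, 3 and 4. No test of these counts was made. The 3 promoters below show the elements in place, with capitals for the matched letters. Atp5k holds an NRF1 core on both strands and an ETS element, Atp5e, the gene that followed the rest most closely, holds an ETS element, and Ndufb8 holds a YY1 element whose letters include an ATG. They lie on the minus strand of GRCm38.p6 at chr5:108434350-108434649 (Atp5k), chr2:174464052-174464351 (Atp5e) and chr19:44555393-44555692 (Ndufb8), and are from RefSeq. In these cells Atp5k had 113, 246.7 and 421 RPKM, Atp5e 167, 261 and 442 RPKM and Ndufb8, an accessory subunit of complex I, 55.1, 93.3 and 151 RPKM in the lowest, median and highest cell.
Atp5k: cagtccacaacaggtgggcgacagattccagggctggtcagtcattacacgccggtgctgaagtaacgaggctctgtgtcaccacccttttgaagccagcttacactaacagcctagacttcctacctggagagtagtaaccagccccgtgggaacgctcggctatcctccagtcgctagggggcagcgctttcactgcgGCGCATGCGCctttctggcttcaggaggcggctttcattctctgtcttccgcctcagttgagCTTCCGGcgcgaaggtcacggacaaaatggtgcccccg
Atp5e: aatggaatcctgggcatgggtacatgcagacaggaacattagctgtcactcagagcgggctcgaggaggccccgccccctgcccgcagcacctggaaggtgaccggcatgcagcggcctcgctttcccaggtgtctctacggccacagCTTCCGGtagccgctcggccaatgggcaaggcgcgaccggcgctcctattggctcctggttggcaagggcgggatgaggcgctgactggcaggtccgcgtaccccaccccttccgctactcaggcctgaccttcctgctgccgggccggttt
Ndufb8: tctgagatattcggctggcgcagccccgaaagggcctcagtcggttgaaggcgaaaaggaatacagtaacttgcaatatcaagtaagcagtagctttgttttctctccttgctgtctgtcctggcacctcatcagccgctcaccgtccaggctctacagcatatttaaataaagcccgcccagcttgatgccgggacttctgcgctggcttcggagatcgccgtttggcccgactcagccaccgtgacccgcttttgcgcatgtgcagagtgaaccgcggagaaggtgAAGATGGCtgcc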

How the data were processed

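The table that the authors deposited is named for counts but holds RPKM values for 25 cells: multiplied by exon length, its low values fell on steps of whole reads. Libraries were Smart-Seq2 with Nextera XT, per the labels' protocols, and carry neither molecular identifiers nor strand. The submitters' processing notes name featureCounts 1.4.6, SAMtools 0.1.19, Picard 2.5.0, TopHat2 2.0.14 and bcl2fastq, and the builds GRCm38 and mm10. The order of these tools, the gene annotation and the pairing of reads were not given in the sources used here.

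Of 33082 rows, 26 whose names had become dates were left out, and 755 symbols on several rows, none of them a chain gene, were represented by the row of highest sum. All 25 value columns were used. Exon lengths, gene positions and coding sequences came from GENCODE M21 (GRCm38). Depth was estimated from the steps, with lengths that may differ from the authors'. Simulated data, 12 sets over 11749 genes, served to test the step finder, which was off by at most 0.43%, which does not cover errors of length. Relations between cells used log2(RPKM + 1), and no test was run, since 1 pooled sample holds all cells. The genes, gene lists and measures were chosen with earlier results of these data known. By complex, the text names the 8 highest genes by median, the 3 lowest still in most cells, all isoform families and genes at 0, the 3 most and least variable genes, up to 5 genes in most cells and 3 in none from each related list, and the 10 most similar others, except that some of these genes are not reported here; further genes were named after their values were seen. Alternatives were other detection levels, pseudocounts and scalings, added rows, fewer cells, longer genes and a shorter promoter window. Python 3.11.15, NumPy 2.4.6, pandas 2.3.3, SciPy 1.17.1 and Matplotlib 3.10.9 were used.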

Additional observations from a re-analysis of the deposited data

How the results depend on the processing

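Of 125 alternatives over 23 results, 109 stayed within a set limit, 16 moved beyond it and 0 turned a called direction. The limit was a factor of 1.5 for counts and the SD over cells for levels and shares. For correlations it was the jackknife standard error over cells, and for motif shares the exact 95% interval over promoters. With each cell rescaled to an equal total, which enlarges the unit, the median levels were 552 for complex I, 386 for II, 623 for III, 469.8 for IV and 623 for V, the mean r between genes was 0.139, that between complexes 0.607 and that with ribosomal proteins 0.68. For complex IV, with a main value of 177 RPKM, the median was 223 RPKM over genes with at least 0.5 kb of exon. Among alternatives chosen after seeing the data, it was 315 RPKM over genes seen in most cells and 221 RPKM with Ndufa4 counted in complex IV, and the mean r between genes read in every cell was 0.308. Without the 6 cells low in Malat1, the mean r between complexes was 0.674 and r with Malat1 was 0.21, against -0.118 over all cells. Without the 2 farthest cells, r was -0.596 with genes at the level and 0.713 with ribosomal proteins. The cause was not tested.

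No paired analysis was possible because all cells form 1 group from 1 pool. The planned relation to mitochondrially encoded subunits was not run, as no gene in the data had a name starting with mt-. The planned identity of the isoform families over RefSeq proteins was not computed either. At the estimated depths the chain genes had a median of 0.19 to 0.545 reads per base of exon in a cell, lowest in cell 9.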
